A study of Mus musculus with 8 samples.

Results

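NADPH oxidases are membrane enzymes that pass electrons from NADPH to oxygen and so make superoxide or hydrogen peroxide. The catalytic subunit Nox1 works in epithelia with a membrane partner, Cyba, a small GTPase of the Rac family, and a pair of cytosolic subunits, the organizer Noxo1 and the activator Noxa1. Phagocytes use a parallel set, with Cybb as the catalytic subunit and Ncf1 as the organizer, while Nox4 needs only Cyba and the dual oxidase Duox2 needs its own maturation factor.

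The genes described are Noxa1, Noxo1, Nox1, Nox4, Cyba, Cybb, Ncf1 and Duox2, which are 8 of the 27828 gene names on the array. They were chosen because Noxa1 was much lower in Sox9 mutant than in wild-type samples, with the phagocyte subunits set beside it as a contrast. The mutant against wild-type values of these 8 genes are therefore given as a description, without a test. Every probe that the array names for a member was used, 11 probes in all, and 7 of the 8 members had a probe well above background on at least 4 arrays. Nox1 did not.

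RNA came from microdissected dorsal pancreatic epithelium of mouse embryos at e12.5. The 4 mutant samples carried Sox9fl/fl and Pdx1-Cre, a transgene that drives Cre from the Pdx1 promoter in the pancreatic epithelium, and the 4 wild-type samples were Sox9fl/fl without Cre. Both genotypes share the floxed Sox9 alleles and a mixed FVB/N and C57Bl/6J background, and loss of Sox9 cannot be told apart from presence of the Cre transgene. Each sample was a pool of 3 embryos and was hybridised to 1 single-colour Agilent array. The submitters' design text mentions a smaller number of biological replicates per genotype than the 4 analysed here, so p-values measure the spread between these arrays, which may in part be technical.

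Each of 3 slides carried both genotypes. Wild-type replicate 2 shared slide 1 with mutant replicate 3, wild-type replicate 3 shared slide 2 with mutant replicates 1 and 4, and mutant replicate 2 shared slide 3 with wild-type replicates 1 and 4. Between 59.4% and 77.7% of spots were well above background, with wild-type replicate 3 and mutant replicate 1, both on slide 2, the highest at 77.7% and 75.3%. The signal that marks the 75th percentile of an array ran from 372 to 640. Levels are given as log2 signal minus that percentile, so that 0 is the 75th percentile of the array, and levels of different probes are not compared with each other. Sox9 itself, the check of the labels, measured 1.82 to 3.01 among wild-type arrays, against -1.79 to 0.77 among mutant arrays and was lower in the mutant by 2.70 log2 (SE 0.52, limma adjusted p = 0.0253). That adjusted p rose to between 0.0524 and 0.0731 without wild-type replicate 1, 2 or 4 or mutant replicate 1.

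Of 18506 genes tested with limma, 5.37% passed an adjusted p of 0.05 in either direction, 288 higher and 706 lower in the mutant. After normexp background correction the calls were 552 higher and 725 lower, and in the authors' deposited value table there were 559 higher and 755 lower.

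The probes that measured these genes are 60 bases long. The 4 printed here are those whose listed position on mouse assembly mm8 runs over more than the probe's own length, so that the probe is split over the genome. They show what the signal of Noxa1, of the shared subunit Cyba and of probe 2 of Nox4 and of Cybb was read from. Probe 1 of Nox4 and of Cybb, the brighter of each pair, is not printed. The sequences are written in lower case, 5′ to 3′, as the scanner files give them. No genome of this build was used to place them in exons.
Noxa1, chr2:24908725-24908948, minus strand: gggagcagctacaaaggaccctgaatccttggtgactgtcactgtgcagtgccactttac
Cyba, chr8:125313083-125313351, minus strand: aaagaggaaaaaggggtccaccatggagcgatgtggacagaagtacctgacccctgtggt
Nox4 probe 2, chr7:87199709-87214729, plus strand: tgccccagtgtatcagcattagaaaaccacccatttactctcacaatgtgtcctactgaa
Cybb probe 2, chrX:8599591-8601518, minus strand: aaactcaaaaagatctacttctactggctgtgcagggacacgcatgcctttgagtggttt

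Noxa1, the activator of the Nox1 complex, measured 0.34, -0.29, -0.09 and 0.88 across wild-type replicates 1 to 4, against -3.19, -4.19, -4.62 and -1.29 across mutant replicates 1 to 4. The lowest wild-type array lay above the highest mutant array, and the mutant arrays were spread far more widely than the wild-type ones, with replicate 4 the highest and replicate 3 the lowest. The group levels were 0.21 ± 0.52 and -3.32 ± 1.48 (SD, n = 4 each), a difference of -3.53 log2 or 11.6-fold. In scanner units the signal was 470, 508, 494 and 1177 among wild-type arrays, against 67.2, 28.7, 16.8 and 255 among mutant arrays. Mutant replicate 3 was not well above background for Noxa1, so its value is only a bound, and without it the difference was -3.10. The probe was well above background on the other 7 arrays and saturated on none.

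The size of the Noxa1 difference varied between slides and with the background correction. Its sign stayed negative under the other processing. Within slides or with arrays left out the sign could not change, because the groups do not overlap. Within slides 1, 2 and 3 the difference was -4.33, -2.15 and -4.79 log2. It was -3.46 after quantile normalization of the processed signal and -2.44 in the authors' deposited value table, which is also quantile normalized. It was -2.25 after normexp correction with an offset of 50, followed by quantile normalization. Leaving out mutant replicate 4, the array with the highest mutant level, moved it to -4.21. Of the 7 members with a probe that passed the filter, Noxa1 was the member whose groups did not overlap, which held in the lower direction for 7.98% of all genes tested. Since the family was picked on this contrast, nothing is read from this count.

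Noxo1, the organizer that pairs with Noxa1, differed less between the genotypes. It measured -0.15, -0.59, -0.42 and -0.13 across wild-type replicates 1 to 4, against -0.65, -0.46, -0.70 and -0.82 across mutant replicates 1 to 4. The groups overlapped through mutant replicate 2, while the other 3 mutant arrays lay below the lowest wild-type array. The difference was -0.34 log2 between -0.32 ± 0.22 and -0.66 ± 0.15 (SD, n = 4 each), or 1.26-fold. It was -0.12, -0.32 and -0.32 within the 3 slides and -0.28 in the authors' deposited table.

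Nox1, the catalytic subunit that both of them serve, was well above background on 2 of the 8 arrays. These were wild-type replicate 3, at -4.15, and mutant replicate 1, at -5.42, the slide 2 arrays with the highest shares of spots above background. On the other 6 arrays the probe read between -7.65 and -6.67 and was not well above background. The probe, chrX:129439393-129439452 on the minus strand, gave no usable comparison of the genotypes and no fold is given. Whether Nox1 RNA was present below this limit was not detectable on these arrays.

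Cyba, the membrane partner that Nox1, Cybb and Nox4 share, was well above background on all 8 arrays. It measured 1.09, 1.04, 1.02 and 1.39 among wild-type arrays, against 1.02, 1.27, 0.97 and 1.01 among mutant arrays. The groups overlapped, with wild-type replicate 4 and mutant replicate 2 standing above the rest. The levels were 1.13 ± 0.17 and 1.07 ± 0.14 (SD, n = 4 each), a difference of -0.06 log2, and the difference stayed between -0.13 and 0.04 within the slides, with each array left out in turn and under normexp, quantile scaling and the authors' deposited table.

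Nox4, which makes hydrogen peroxide with Cyba alone, had a probe on each of 2 stretches of the gene, both well above background on all 8 arrays. Probe 1, chr7:87272933-87272992 on the plus strand, measured -2.60, -2.71, -2.99 and -2.91 among wild-type arrays, against -2.80, -2.82, -2.69 and -2.98 among mutant arrays. These values interleaved, and the difference was -0.02 log2. Probe 2 measured between -4.03 and -3.29 among wild-type arrays, against between -4.64 and -3.38 among mutant arrays, with the lowest value in mutant replicate 4. Its difference was -0.20 log2, and the groups overlapped. For both probes the sign of the difference changed under quantile scaling, normexp and the authors' deposited table, so no direction is given.

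Duox2, a dual oxidase known from thyroid and mucosal epithelia, measured -2.75, -4.29, -3.43 and -3.62 among wild-type arrays, against -3.56, -3.17, -4.45 and -3.48 among mutant arrays. The groups overlapped, and the lowest array of each genotype, wild-type replicate 2 and mutant replicate 3, lay on slide 1. The difference was -0.14 log2 between -3.52 ± 0.63 and -3.67 ± 0.55 (SD, n = 4 each). Its sign changed under quantile scaling. The probe, chr2:121974384-121974443 on the minus strand, was designed on a cDNA clone rather than on a RefSeq transcript.

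**Figure D1:**
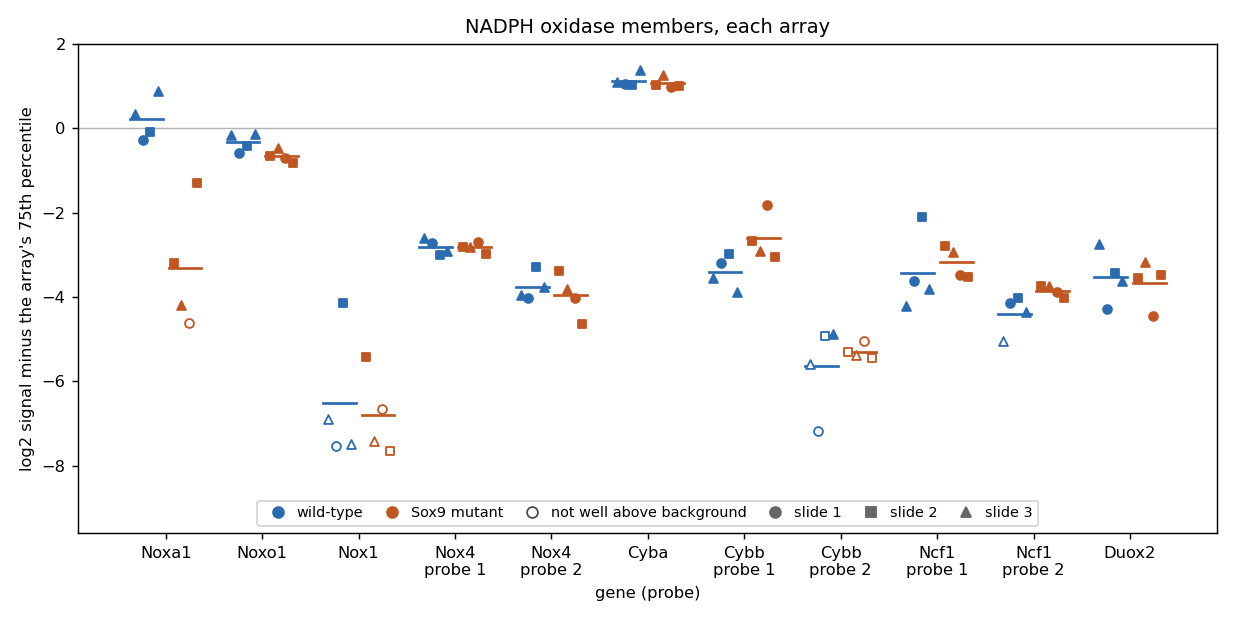
The vertical axis gives the log2 signal minus the 75th percentile of the array for each of the 11 member probes, with 4 wild-type (blue) and 4 mutant (orange) arrays per probe, a bar at each group mean, a symbol for each slide, and open symbols for spots not well above background. The groups of Noxa1 do not overlap, with wild-type levels of -0.29 to 0.88 against mutant levels of -4.62 to -1.29, whereas those of the other 10 probes do.

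For the phagocyte subunits the mutant minus wild-type difference was above 0 on the probes that passed the filter, although that of Ncf1 probe 1 was -1.05 within slide 2 and -0.01 without wild-type replicate 1. Cybb, the phagocyte catalytic subunit, measured on probe 1 -3.56, -3.20, -2.98 and -3.87 among wild-type arrays, against -2.66, -2.91, -1.82 and -3.04 among mutant arrays. Of the mutant arrays 3 lay above the highest wild-type array, and the groups overlapped through mutant replicate 4. The levels were -3.40 ± 0.39 and -2.61 ± 0.55 (SD, n = 4 each), a difference of 0.79 log2 or 1.73-fold. It was 1.38, 0.13 and 0.80 within the 3 slides, 0.54 in the authors' deposited table and 0.49 after normexp correction. Probe 1 lies at chrX:8594147-8594206 on the minus strand. Probe 2 of Cybb was well above background in wild-type replicate 4 and on no other array, and gives no fold.

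Cybb and Nox1 are on the X chromosome, and the sex of the pooled embryos ran in part with genotype. The Y-linked gene Ddx3y measured -6.84, -4.86, -0.82 and -7.43 across wild-type replicates 1 to 4, against between -1.37 and 0.11 among mutant arrays. The female-expressed gene Xist measured 3.44 to 4.75 among wild-type arrays, against -5.73, 3.11, 3.54 and 3.56 across mutant replicates 1 to 4. Both come from a list of 5 sex-linked genes. The part of these sex-linked differences in the Cybb values was not tested.

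Ncf1, the phagocyte organizer, gave different values on its 2 probes. Probe 1, chr5:134506156-134506215 on the minus strand, measured -4.21, -3.61, -2.10 and -3.80 among wild-type arrays, against -2.80, -2.93, -3.47 and -3.52 among mutant arrays. Wild-type replicate 3, on slide 2, was the highest of all 8 arrays, and the groups overlapped. The difference was 0.25 log2 over all arrays and 0.14, -1.05 and 1.08 within the 3 slides, and it was 0.70 without wild-type replicate 3. Probe 2, chr5:134505486-134505545 on the minus strand, measured -5.05, -4.14, -4.03 and -4.35 among wild-type arrays, against -3.75, -3.75, -3.87 and -4.03 among mutant arrays and was not well above background in wild-type replicate 1. On this probe 3 mutant arrays lay above the highest wild-type array, and the difference was 0.54 log2, or 0.14 to 0.95 within the slides and 0.32 without wild-type replicate 1.

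**Figure D2:**
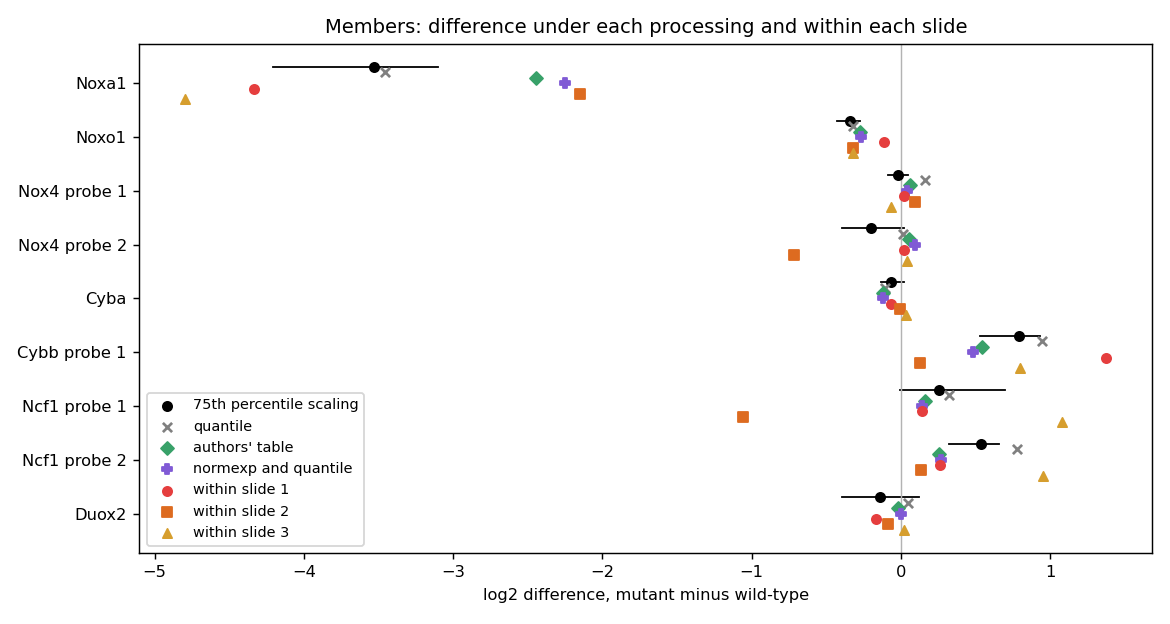
The horizontal axis gives the log2 difference, mutant minus wild-type, for the 9 member probes that passed the filter, under the 75th percentile scaling (black, with a line for the range when each array is left out in turn), 3 other ways of processing and within each slide. Noxa1 stays between -4.79 and -2.15, Cyba between -0.13 and 0.04, and Cybb probe 1 between 0.13 and 1.38.

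A list of 17 further subunits and regulators was examined for the rest of the pathway, and 15 of them could be tested. Rac2 rose in the mutant by limma, and no gene of the list fell. At an unadjusted p under 0.05, 4 were higher and 0 lower. Counts at this unadjusted cut-off, here and for the later lists, stand without the share of all genes and are a description only. The calls are 1 of 15 where 1.56% of all genes tested passed in the higher direction. The median difference of the list was 0.19 log2 against 0.02 over all genes. Of the 15 genes 12 lay above 0, as did 9780 of all 18506 genes tested.

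Rac2, the GTPase of the phagocyte oxidase, measured -0.52, -0.07, -0.40 and -0.30 among wild-type arrays, against 0.45, 0.59, 0.89 and 0.26 among mutant arrays. All 4 mutant arrays lay above all 4 wild-type arrays, as did the mutant arrays in 7.23% of all genes tested. The difference was 0.87 log2 (SE 0.16, limma adjusted p = 0.0235), and it lay above 0 within each slide, lowest at 0.75 on slide 2. The adjusted p ran from 0.00764 to 0.145 over the alternatives, and the call was lost without wild-type replicate 1, 3 or 4 or mutant replicate 1 or 2, at adjusted p between 0.0603 and 0.0719.

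The other phagocyte regulators did not pass. Ncf4, a further cytosolic subunit, had a difference of 0.60 (adjusted p = 0.0900) and groups that did not overlap. It passed with slide as a block, at an adjusted p of 0.0175. Vav1, an exchange factor for Rac, had 0.57 (adjusted p = 0.293), and Arhgdib, an inhibitor of small GTPases in leukocytes, 0.54 (adjusted p = 0.134). The groups of Arhgdib did not overlap either, with the mutant higher, which held for 7.23% of all genes tested. Cybc1, a chaperone of the Cybb and Cyba pair, had 0.19, Prkcd, a kinase that phosphorylates Ncf1, 0.07, and Rap1a 0.02.

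None of the remaining partners that could be tested passed. Rac1, the GTPase that serves Nox1 in epithelia, had 0.15 (adjusted p = 0.707), Rac3 0.19, and Arhgdia, a widely expressed inhibitor of small GTPases, 0.11. The scaffold proteins Sh3pxd2a and Sh3pxd2b, which can stand in as organizers, had 0.28 and 0.33, and the Nox4 partner Poldip2 had -0.04. The groups of Sh3pxd2b did not overlap, with the mutant higher, as in 7.23% of all genes tested. Duox1 had -0.16 (adjusted p = 0.930) and the maturation factor Duoxa1 -0.54 (adjusted p = 0.610), each above background on 5 or 6 of the 8 arrays. Nox3 and Duoxa2, the maturation factor of Duox2, were above background on 0 and 2 arrays and were not tested.

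Genes that remove or use reactive oxygen formed a second list of 39, of which 36 were tested. Gpx2, Glrx and Srxn1 fell in the mutant, 3 of 36 against 3.81% of all genes in that direction, and none rose by limma, where 3 were higher at an unadjusted p under 0.05. The median difference was 0.01 log2, with 19 above 0 and 17 below.

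Gpx2, the glutathione peroxidase of gut-type epithelium, measured 1.83, 1.29, 1.32 and 1.59 among wild-type arrays, against -1.51, -1.85, -2.53 and -0.37 among mutant arrays. As with Noxa1, mutant replicate 4 was the highest and replicate 3 the lowest mutant array, and the groups did not overlap. The difference was -3.07 log2 (SE 0.41, limma adjusted p = 0.00880), and -3.82, -2.26 and -3.56 within the 3 slides. Over the alternatives the adjusted p ran from 0.00113 to 0.0740, the last of these with wild-type replicate 3 and mutant replicate 1 both left out, and the call held with each single array left out in turn.

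Glrx, a glutaredoxin, measured 0.71 to 1.24 among wild-type arrays, against 0.21 to 0.40 among mutant arrays, a difference of -0.66 log2 (SE 0.13, limma adjusted p = 0.0302). It did not pass without wild-type replicate 2 or 4 or mutant replicate 1, 2 or 3 (0.0609 to 0.0932) or with slide as a block (0.0536). Srxn1, which repairs oxidised peroxiredoxins, measured -0.35 to 0.02 and -1.02 to -0.63, a difference of -0.60 (SE 0.13, limma adjusted p = 0.0402). It did not pass when any 1 array was left out (0.0531 to 0.0981).

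**Figure D3:**
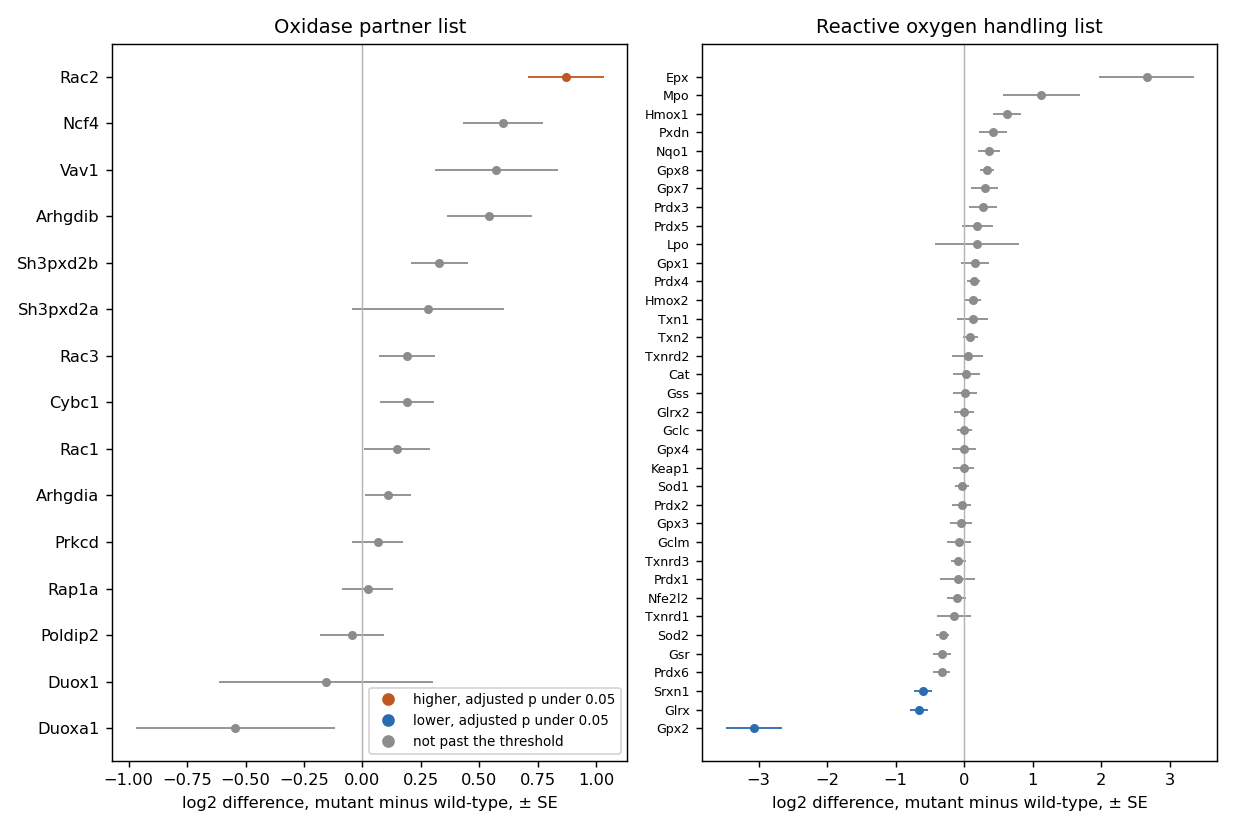
Each panel gives the log2 difference, mutant minus wild-type, with its SE for the tested genes of a list (15 oxidase partners on the left, 36 reactive oxygen genes on the right), coloured where limma's adjusted p was under 0.05. Rac2 lies highest on the left at 0.87, and Gpx2 lies lowest on the right at -3.07.

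Markers of cell types in the dissected tissue also differed between the genotypes. Of 25 epithelial markers tested with limma 22 fell and none rose (0 higher at an unadjusted p under 0.05), where 3.81% of all genes fell. The markers had a median of -2.13 log2. Their mean level was 0.87 to 1.32 among wild-type arrays, against -1.44 to -0.14 among mutant arrays. The 3 with the highest level were Krt18, at -0.98 (limma adjusted p = 0.0131), Krt8, at -1.56 (adjusted p = 0.00812), and Krt7, at -0.53 (adjusted p = 0.104). The lowest difference of the list was that of Cldn3, at -2.75 where Noxa1 was at -3.53. In the authors' deposited table Cldn3 was at -2.62 and Noxa1 at -2.44, and after normexp correction they were at -2.60 and -2.25, so their order depended on the processing. Of 15 pancreatic progenitor markers tested 12 fell and none rose, where 3.81% of all genes fell. Their median was -2.15 and their lowest difference -3.66, below that of Noxa1. Of all 18506 genes tested 12 had a lower difference than Noxa1. In bulk RNA, fewer cells of a type and less RNA per cell cannot be told apart. The part of the epithelial markers' change in the Noxa1 and Gpx2 differences was not tested.

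Markers of macrophages and other leukocytes were set beside the phagocyte subunits. Of 22 such markers tested with limma 5 rose and none fell (20 higher and 0 lower at an unadjusted p under 0.05), where 1.56% of all genes rose. All 22 had differences above 0, as did 9780 of all 18506 genes tested, and the median was 0.59 log2. The mean level of the list was 0.07 to 0.38 among wild-type arrays, against 0.60 to 1.01 among mutant arrays. Lyz2 was at 0.91 (limma adjusted p = 0.0696), C1qc at 0.64 (adjusted p = 0.0426) and Csf1r at 0.81 (adjusted p = 0.0212). Itgam and Spi1, defining leukocyte genes, were not tested because they were above background on fewer than 4 arrays. Of the 7 tested genes of neutrophil granules none passed limma's threshold (4 higher at an unadjusted p under 0.05), and all lay above 0 with a median of 1.90, and S100a9 was at 1.79 (adjusted p = 0.118). The differences of Rac2 and Cybb probe 1, at 0.87 and 0.79, lay within the range of the leukocyte markers', 0.24 to 0.91, as did that of Ncf1 probe 1 at 0.25. Cyba, at -0.06, lay below that range. The part of leukocyte markers in these differences was not tested. Mesenchymal and endothelial markers had medians of 0.67 and 0.44, with all 15 and all 12 above 0. The mesenchymal range, 0.07 to 1.16, also held the differences of Rac2, Cybb probe 1 and Ncf1 probe 1. The endothelial range, 0.19 to 0.67, held that of Ncf1 probe 1 and not the other ones. By limma 4 of 15 and 2 of 12 rose, where 1.56% of all genes did, and 12 and 8 were higher at an unadjusted p under 0.05.

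Variation between arrays of the same genotype, which the choice of genes did not use, was examined after subtracting each genotype's mean. In the mutant arrays Noxa1 deviated by 0.13, -0.86, -1.30 and 2.03 from its mean in replicates 1 to 4, and the mean level of the epithelial markers by 0.06, -0.56, -0.24 and 0.74. Replicate 4 was highest and replicates 2 and 3 were lowest in both. Over the 8 arrays Pearson's r was 0.86 (exact permutation within genotypes, two-sided, p = 0.0538, adjusted p = 0.431 over the 16 correlations computed) and Spearman's ρ was 0.83 (exact p = 0.0451, adjusted p = 0.361). Without mutant replicates 2 and 4, the 2 arrays farthest from the median of the epithelial level, r was 0.57. The relation did not pass after adjustment and leans on these arrays. Mutant replicate 3, kept here, was not well above background for Noxa1. Its value is only a bound and enters the mutant mean, the deviations and the correlations of Noxa1.

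Taken gene by gene, 24 of the 25 epithelial markers had an r above 0 with Noxa1, as did 7812 of all 18497 genes compared. The median r of the markers was 0.80 against -0.10 over all genes compared. The median was 0.78 with slide means removed as well and 0.49 without mutant replicate 4. For the 15 pancreatic progenitor markers the median r with Noxa1 was 0.68, or 0.83 with slide means removed, and 14 lay above 0. For the 15 mesenchymal markers it was -0.54, with 0 above 0. These markers share the arrays and their scaling, so the values are a description. For Noxo1 and Cyba the median r with the epithelial markers was -0.15 and -0.20, against 0.08 and -0.03 over all genes. For Duox2 it was 0.33 against 0.04 over all genes, and 0.02 without wild-type replicate 2 and mutant replicate 3. For Cybb the median r was 0.19 with leukocyte, 0.40 with neutrophil granule and 0.45 with mesenchymal markers, against 0.12 over all genes. For Ncf1 these medians were -0.17, 0.49 and -0.17, against 0.04 over all genes.

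Noxa1 was also compared with Gpx2 and with Sox9. With Gpx2, Pearson's r was 0.95 and Spearman's ρ 0.98 (exact permutation within genotypes, two-sided, p = 0.00694 for both, adjusted p = 0.111 for both), and r was 0.78 without mutant replicates 3 and 4. With Sox9 itself r was 0.58 and ρ 0.52 (exact p = 0.314 and 0.274, adjusted p = 0.624 and 0.870), and r was -0.18 without mutant replicates 2 and 4. Cybb with the mean level of the leukocyte markers gave r = 0.29 and ρ = 0.24 (exact p = 0.585 and 0.622, adjusted p = 0.624 and 0.904), and r = -0.52 without mutant replicates 3 and 4. Ncf1 with the same markers gave r = -0.14 and ρ = 0.07 (exact p = 0.793 and 0.851, adjusted p = 0.793 and 0.948), and r = -0.23 without those arrays. None of the 16 correlations passed after adjustment.

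**Figure D4:**
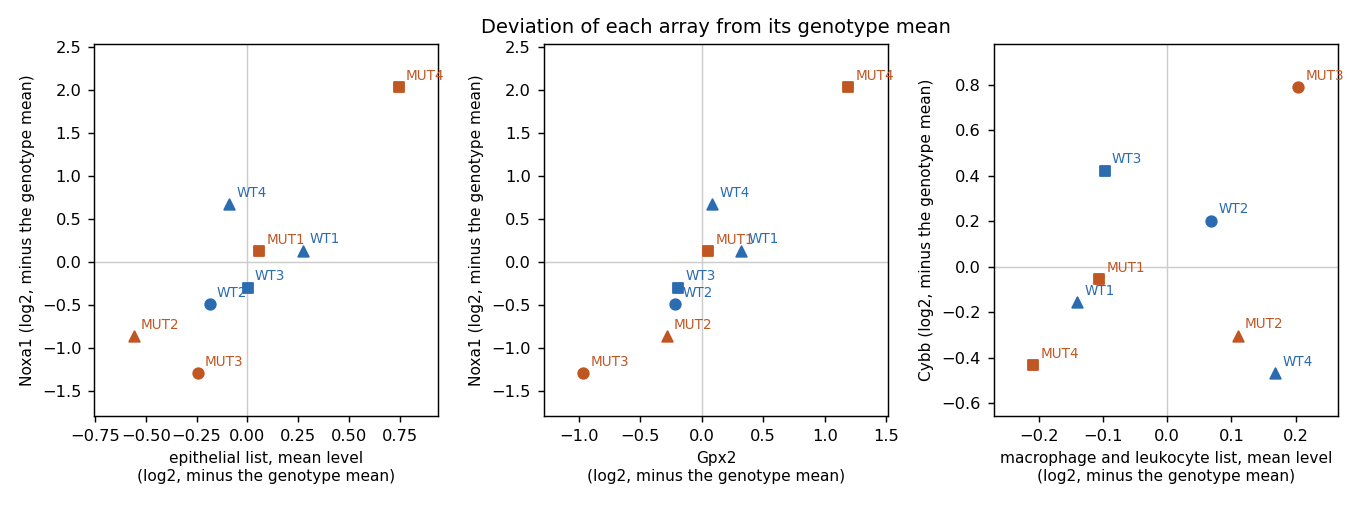
Each point is 1 array (labelled, wild-type blue, mutant orange), placed by its deviation from its genotype's mean in log2, for Noxa1 against the mean of the epithelial markers, Noxa1 against Gpx2, and Cybb against the mean of the leukocyte markers. Mutant replicate 4 lies far above the rest in both Noxa1 panels, at 2.03, and in the Cybb panel r is 0.29.

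Among all genes compared, those whose levels ran closest to Noxa1 over the 8 arrays, genotype difference included, were Prps2 (r = 0.994), Cldn10 (0.992), Tmem171 (0.992), Nup210 (0.991) and Dusp9 (0.990). With genotype means removed they were Mast1 (0.983), Prps2 (0.979), Atp8b1 (0.978), St14 (0.977) and Tmem171 (0.971). Prps2 and Tmem171 stood in both lists, and St14, a membrane serine protease, was among the epithelial markers. These are the highest of 18491 values over 8 arrays and are a ranking, not a test.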

How the data were processed

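Agilent Feature Extraction 9.5.3.1 produced the deposited scanner files, per the file headers. Their processed signal is an intensity that the authors' software had corrected for background, and the mean and background signals used in 1 alternative are uncorrected. Other deposited columns used are control and quality flags. The authors' deposited value table holds quantile normalized intensity values with a median of 227 on each array. The submitters' processing notes name limma without a version.

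Control and outlier spots were left out. Log2 processed signals had each array's 75th percentile subtracted. Probes well above background on at least 4 of 8 arrays were kept, and a gene took its brightest kept probe. Genotypes were compared with limma 3.58.1 in R 4.3.3 (lmFit and eBayes, Benjamini-Hochberg over 18506 genes, threshold 0.05), after tests on simulated data. Python 3.11.15 was used for the rest. The number of arrays limits the precision. Correlations within genotypes used an exact permutation over 576 arrangements, a test added after the data were seen.

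The members, gene lists and tests were chosen with earlier results of these data known. The genes named are the members, all tested oxidase partners, reactive oxygen genes past the threshold, Sox9, the 5 genes most like Noxa1, Cybb or Ncf1, and up to 3 markers per cell type by level. An oxidase partner left out of the list and its counts is not reported here. Exceptions, named after their values were seen, are Ddx3y, Xist, Cldn3, Itgam and Spi1, and in the closing part Gpx8, Epx and Pxdn. Of the other lists, 2 of 7 tested stomach and intestine genes fell by limma, where 3.81% of all genes did. None of the 7 rose (0 higher at an unadjusted p under 0.05).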

Additional observations from a re-analysis of the deposited data

Results flagged for a closer look

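In 4 of 60 groups of 4 arrays, 1 array stood apart by Dixon's test at the 95% level, whose ratio is the gap to the nearest array over the whole range. Chance gives about 1 in 20 such groups. Cyba in the mutant group had a ratio of 0.859, with mutant replicate 2 at 1.27 and the others at 0.97 to 1.02. Duox1 in the wild-type group had 0.877, with wild-type replicate 3 at -3.56 and the others at -5.39 to -5.16. Sh3pxd2b and Prkcd in the mutant group had 0.864 and 0.857, both from mutant replicate 3, at 1.36 against 1.06 to 1.10 and at 0.93 against 0.75 to 0.77.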

How the results depend on the processing

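The Noxa1 difference stayed below 0 under other processing, at -3.46 after quantile normalization of the processed signal and -2.25 after normexp correction. It was -2.15 and -4.79 within slides 2 and 3, and -4.21 to -3.10 with each array left out. Within slides and with arrays left out its sign was fixed in advance, as the groups did not overlap. A filter that asked for all 8 arrays above background removed the Noxa1 probe. Same-numbered arrays of the genotypes correlated at -0.35, -0.30, 0.00 and 0.09 after removal of genotype means. They lay on different slides, so these values cannot decide whether the replicate numbers pair the samples. With the replicate block 340 genes passed, with 0 oxidase partners higher and 1 reactive oxygen gene lower. With 4 complete pairs the block cannot move a difference of means. Over all genes 994 passed in the fit reported, 419 with no filter on dim probes, 1529 with slide as a random block, 395 to 976 with each array left out, and 6 with wild-type replicate 3 and mutant replicate 1 both left out, an alternative added after the data were seen. Among oxidase partners higher in the mutant, 1 passed as reported, 2 with slide as a block or as a random block (Rac2 and Ncf4), 0 with no filter and with those 2 arrays left out, and 0 to 1 with each array left out. Among reactive oxygen genes lower in the mutant, 1 passed with no filter, 0 with those 2 arrays left out and 1 to 2 with each array left out. For those higher in the mutant, 1 passed after normexp (Gpx8), 1 with slide as a random block (Epx) and 0 to 1 with each array left out (Pxdn or Epx). The share of calls that were higher was 29.0% as reported, 43.2% after normexp and 42.5% in the authors' table. The median r of Noxa1 with epithelial markers ran from 0.49 to 0.85 with each array left out, and that of Cybb with leukocyte markers from -0.23 to 0.57. Dim probes limit Nox1, Cybb probe 2 and the lowest mutant value of Noxa1. The cause of these shifts was not tested.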

Other observations

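With genotype means removed, the genes that ran closest to Cybb were Clec14a (r = 0.992), an endothelial surface protein, Fahd1 (0.987), Atat1 (0.987), 2900093K20Rik (0.984) and Phf20l1 (0.981), none of them in the leukocyte list. Those closest to Ncf1 were Arrdc2 (0.991), Dpep1 (0.988), Morc4 (0.987), Gpr171 (0.981) and Dio3as (0.980). Ncf1 deviated from its genotype mean by 1.33 in wild-type replicate 3 and by -0.78 to 0.38 on the other 7 arrays. These are the highest of 18491 values over 8 arrays and are given as a ranking.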
